A study of Oryctolagus cuniculus with 18 samples.

Results

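PDGFA, PDGFB and VEGFA, which encode secreted growth factors of the platelet-derived (PDGF) and vascular endothelial (VEGF) families, were measured by quantitative PCR in the lower abdominal aorta of 18 male New Zealand White (NZW) rabbits. These 3 genes were taken by symbol from the 84 genes of interest of the rabbit wound healing array. The 9 control rabbits were healthy and ate chow. The 9 rabbits of the atherosclerotic group, labelled as having stable advanced atherosclerosis, ate a diet of 0.30% cholesterol for 8 weeks and 0.15% cholesterol for 12 more weeks, and their aorta was denuded with a balloon catheter. All rabbits were 11 weeks old at the start, and each sample came from the whole wall of 1 rabbit. Diet and denudation always occurred together and cannot be told apart. In such bulk RNA, fewer cells of a type and less RNA per cell cannot be told apart either.

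PDGF ligands are pairs of A and B chains. The A chain signals mainly through PDGF receptor alpha and the B chain through both the alpha and the beta receptor, of which the beta receptor is prominent on vascular smooth muscle cells and pericytes. PDGFB is known as a product of platelets, endothelium and macrophages that draws smooth muscle cells into the growing intima, and PDGFA is made by smooth muscle cells among others. VEGFA, which acts on receptors of endothelial cells, is induced by low oxygen and drives the growth and leakiness of small vessels such as the vasa vasorum.

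Each gene had 1 well per rabbit. The threshold cycle (Ct) counts the PCR cycles a well needs to reach a set fluorescence, so an earlier Ct is more transcript. Expression is given as the deposited ratio of a gene to its own rabbit's reference level, which is set by the 5 reference genes ACTA2, ACTB, GAPDH, LDHA and LOC100346936. On the log2 scale 1 unit is a doubling. A Ct of 35 or later was held at 35 by the authors and gives only an upper limit. Among the wells of these growth factors this concerned PDGFB in control rabbits 1 and 3, while all other wells were below 35 cycles. The reference level of control rabbit 3 came late, at 24.53 cycles where its group otherwise spanned 22.00 to 22.82, and that of atherosclerotic rabbit 20 came early, at 19.79 cycles where its group otherwise spanned 22.65 to 23.65. The group differences, the ratios, the counts for the lists and Pearson's r of the most similar genes are therefore also given without these 2 rabbits. The marker values, the mean raw Ct and the correlations between growth factors were not computed without both. Of the smooth muscle markers listed for a check of the tissue, 3 of 6 were on the array (ACTA2, ACTC1 and transgelin, TAGLN), and their summed ratio ran from 25.2 to 36.9 in the control group and from 1.31 to 13.6 in the atherosclerotic group. The T cell markers CD40LG, IL2 and IFNG (3 of 6 listed) summed to between 0.0796 and 0.147 in the control group and between 0.0647 and 0.274 in the atherosclerotic group. Most of this sum was IFNG, with means of 0.107 and 0.108, while IL2 was lower in all 9 atherosclerotic rabbits, at a mean of 0.00188 against 0.00733 in controls, and CD40LG was higher, at 0.00275 against 0.000488 (exact permutation p = 0.0070), with overlap. None of the listed markers of macrophages, endothelium or platelets was on the array. The part of a shift in cell types in the results below was not tested.

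PDGFB was higher in every atherosclerotic rabbit than in any control rabbit. Its expression in the control group ran from 0.000169 in rabbit 13 over a median of 0.000582 to 0.00173 in rabbit 21. In the atherosclerotic group it ran from 0.00237 in rabbit 20 over a median of 0.0146 to 0.0200 in rabbit 4. The groups did not overlap, which held in the same direction for 13.1% of the 84 genes, and rabbit 20 was the only atherosclerotic rabbit near the control range. The group means were 0.000609 ± 0.000480 (SD, n = 9) and 0.0132 ± 0.00508 (SD, n = 9). PDGFB rose by a log2 difference of 4.63 (standard error 0.45, limma adjusted p = 2.8e-08 over the 84 genes), a 24.8-fold increase with a 95% interval of 12.9 to 47.7. At an adjusted p under 0.05, 60.7% of all genes were called, 38.1% as higher and 22.6% as lower. PDGFB ranked 4 among the 84 genes by its increase. The change was also plain in the raw cycles, where the mean Ct of PDGFB went from 33.90 in controls to 29.16 in the atherosclerotic group. Without rabbits 3 and 20 the log2 difference was 4.99, and with the 2 wells at the limit left out it was 4.55.

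PDGFA, the gene of the partner chain, moved the other way at the deposited reference level, although it was higher against ACTA2 alone as reference. The control rabbits lay close together, from 0.0358 in rabbit 7 over a median of 0.0458 to 0.0518 in rabbit 1. The atherosclerotic rabbits ran from 0.0154 in rabbit 6 over a median of 0.0237 to 0.0412 in rabbit 2. Rabbit 2 was the only atherosclerotic rabbit within the control range, and the other 8 were below it, so PDGFA was not among the 9.52% of genes that were lower without overlap. The means were 0.0454 ± 0.00489 (SD, n = 9) and 0.0258 ± 0.00844 (SD, n = 9). PDGFA fell by 0.88 on the log2 scale (standard error 0.20, limma adjusted p = 0.00064), which is 1.84-fold lower. Leaving out rabbits 3 and 20 gave -0.87. The spread among control rabbits was small, with an SD of 0.16 on the log2 scale that ranked 3 from the smallest of the 84 genes, whose median SD in the control group was 0.73. In the atherosclerotic group the SD was 0.46. Before normalization the mean Ct went from 27.17 in controls to 28.08 in the atherosclerotic group (two-sided exact permutation p = 0.083). This comparison includes rabbit 3, at 28.90 cycles, and rabbit 20, at 25.11 cycles. Without these rabbits the Ct ran from 26.34 to 27.18 in controls and from 27.61 to 29.47 in the atherosclerotic group. The raw Ct was not tested without them.

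VEGFA rose less than PDGFB at the deposited reference level, and was lower in the atherosclerotic group against LDHA alone as reference. It ran from 0.0123 in rabbit 13 over a median of 0.0187 to 0.0375 in rabbit 3 in the control group. In the atherosclerotic group it ran from 0.0250 in rabbit 2 over a median of 0.0439 to 0.104 in rabbit 12. The groups overlapped, with 6 of 9 atherosclerotic rabbits above every control rabbit. The means were 0.0204 ± 0.00785 (SD, n = 9) and 0.0497 ± 0.0240 (SD, n = 9). The log2 difference was 1.24 (standard error 0.27, limma adjusted p = 0.00054), or 2.37-fold with a 95% interval of 1.59 to 3.52, and VEGFA ranked 29 among the 84 genes by its increase. It was 1.43 when rabbits 3 and 20 were left out. The raw Ct moved in the same direction, from a mean of 28.40 cycles in controls to 27.19 cycles in the atherosclerotic group. These means include rabbit 3, the latest control at 29.27 cycles, and rabbit 20, the earliest of its group at 24.76 cycles. Without them the Ct ran from 27.75 to 28.57 in controls and from 26.71 to 28.44 in the atherosclerotic group.

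**Figure D1:**
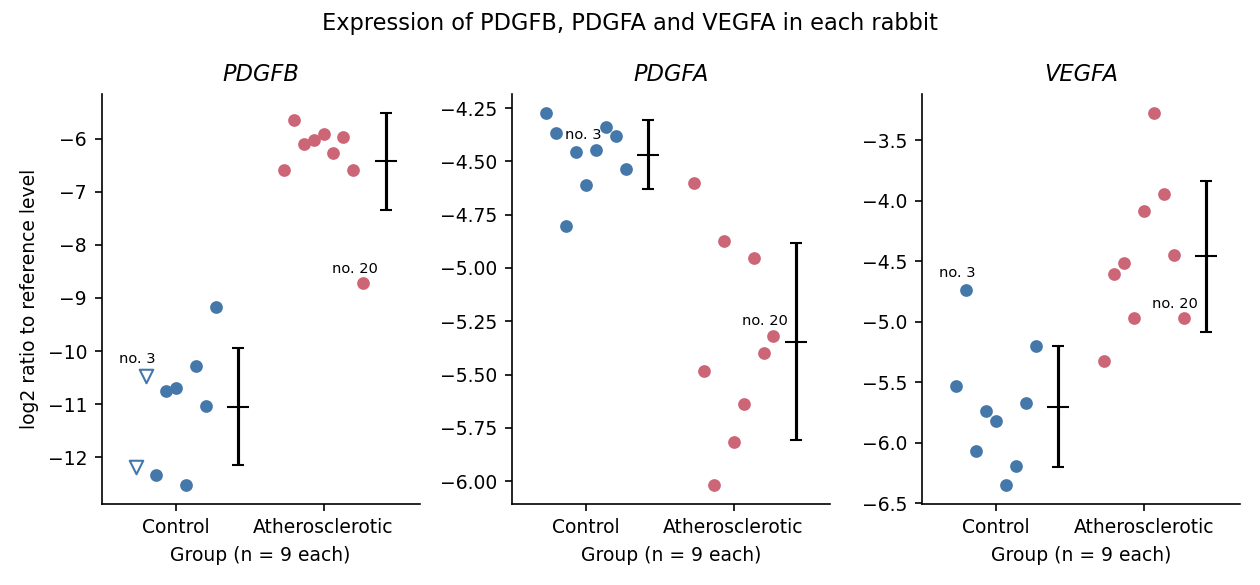
Expression of PDGFB, PDGFA and VEGFA as log2 of the ratio to the reference level (vertical axis, a scale of its own in each panel) in the 9 control and 9 atherosclerotic rabbits. Each point is 1 rabbit, open triangles are upper limits from wells at 35 cycles or later, bars are the mean and SD, and rabbits 3 and 20 are numbered. The groups are apart for PDGFB, with rabbit 20 lowest at -8.72, and overlap for PDGFA, which is lower, and for VEGFA, which is higher in the atherosclerotic group at this reference level (PDGFA turns against ACTA2 alone and VEGFA against LDHA alone).

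Because all 3 genes were read in the same cDNA, the ratio between any pair of them within a rabbit does not depend on the reference genes. The level of such a ratio depends on how efficiently each assay amplifies and is no ratio of molecules, so only its difference between the groups is compared. The PDGFB to PDGFA ratio ran from 0.00369 in rabbit 13 to 0.0401 in rabbit 21 in the control group, with upper limits of 0.00415 in rabbit 1 and 0.0146 in rabbit 3. In the atherosclerotic group it ran from 0.0947 in rabbit 20 to 0.946 in rabbit 6. All 9 atherosclerotic rabbits lay above all control rabbits. On the log2 scale the ratio averaged -6.58 ± 1.10 (SD, n = 9) in controls and -1.07 ± 1.08 (SD, n = 9) in atherosclerotic aortas. It thus shifted by 5.51 (standard error 0.51), or 45.5-fold from A chain towards B chain transcript, which was larger than the rabbit-to-rabbit spread. The two-sided exact permutation p was 4.1e-05, the lowest possible for groups of this size, and 6.2e-05 when adjusted over the 3 ratios.

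The other ratios also differed. The PDGFB to VEGFA ratio rose by 3.39 on the log2 scale (standard error 0.44, exact permutation adjusted p = 6.2e-05), from a control range of -6.65 to -3.98 to an atherosclerotic range of -3.75 to -1.04. These ranges did not overlap, although rabbit 20 at -3.75 stood close to control rabbit 21 at -3.98. The increase of PDGFB was thus larger than that of VEGFA in the same rabbits. The VEGFA to PDGFA ratio rose by 2.12 (standard error 0.35, exact permutation adjusted p = 0.00012), from a control range of -1.90 to -0.37 to an atherosclerotic range of -0.72 to 2.37. Atherosclerotic rabbit 2, with the highest PDGFA and the lowest VEGFA of its group, was the only rabbit of that group inside the control range. With rabbits 3 and 20 left out, the differences of the ratios were 5.86 for PDGFB to PDGFA, 3.56 for PDGFB to VEGFA and 2.29 for VEGFA to PDGFA.

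**Figure D2:**
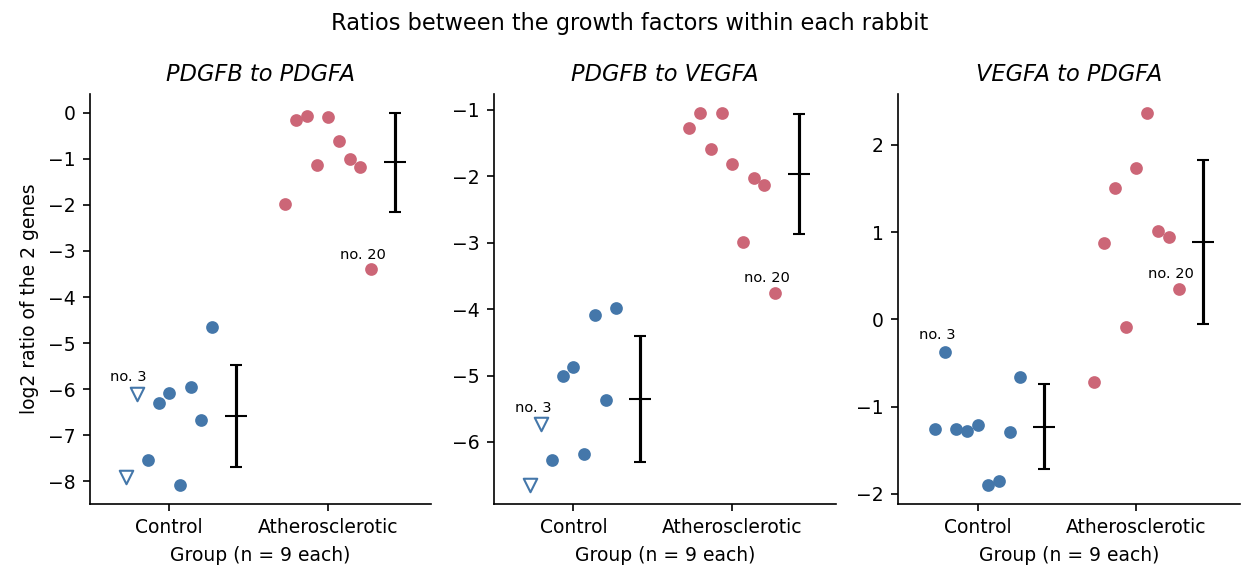
Log2 ratios of PDGFB to PDGFA, PDGFB to VEGFA and VEGFA to PDGFA within each rabbit (vertical axis, a scale of its own in each panel), in the control and the atherosclerotic group. Points are single rabbits, open triangles are upper limits because the PDGFB well was at 35 cycles or later, bars are the mean and SD, and rabbits 3 and 20 are numbered. Both ratios with PDGFB are apart between the groups, and the VEGFA to PDGFA ratio overlaps through atherosclerotic rabbit 2 at -0.72.

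The direction of PDGFB did not depend on the reference genes, whereas the calls of PDGFA and VEGFA did. Of the 5 reference genes, ACTA2, LDHA and GAPDH differed between the groups in their raw Ct (exact permutation p = 0.0029, 4.1e-05 and 0.0060). The differences of ACTB, 0.42 cycles, and LOC100346936, -0.21 cycles, did not pass the test (exact permutation p = 0.19 and 0.60). For each of the 5 genes, rabbit 3 had the latest control well and rabbit 20 the earliest atherosclerotic well. For ACTB these were at 22.00 and 19.60 cycles, and for LOC100346936 at 27.32 and 22.83. The raw Ct of the reference genes was not tested without these rabbits, so which of them differ may depend on both. The mean raw Ct of ACTA2, the smooth muscle actin, went from 18.87 cycles in controls to 21.82 cycles in atherosclerotic aortas, and LDHA, a glycolytic enzyme, from 26.70 to 24.21 cycles. GAPDH, also of glycolysis, went from 22.92 to 21.85 cycles. Over 13 other reference levels PDGFB was higher in all 13, from 4.28-fold against LDHA alone to 187-fold against ACTA2 alone, and its largest limma adjusted p was 4.1e-05. PDGFA was lower in 12 of 13. It fell by 1.70 on the log2 scale without ACTA2 in the reference level, its difference was -0.33 without LDHA (limma adjusted p = 0.14) and -0.50 against ACTB alone (limma adjusted p = 0.19), and it was higher by 2.04 against ACTA2 alone (limma adjusted p = 0.00024). PDGFA thus fell less than ACTA2 did. VEGFA was higher in 12 of 13. Its log2 difference was 0.42 with ACTA2 left out (limma adjusted p = 0.17) and 0.13 against GAPDH alone (limma adjusted p = 0.73), and it turned to -1.29 against LDHA alone (limma adjusted p = 0.0014).

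A change of reference level shifts all 84 genes together, so the distance of each growth factor from the median gene stays the same. The median log2 difference of all genes was 0.37 at the deposited reference level, -0.45 with ACTA2 left out and 0.92 with LDHA left out. PDGFB lay 4.26 above this median, VEGFA 0.87 above while PDGFA stood at -1.25 from it.

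**Figure D3:**
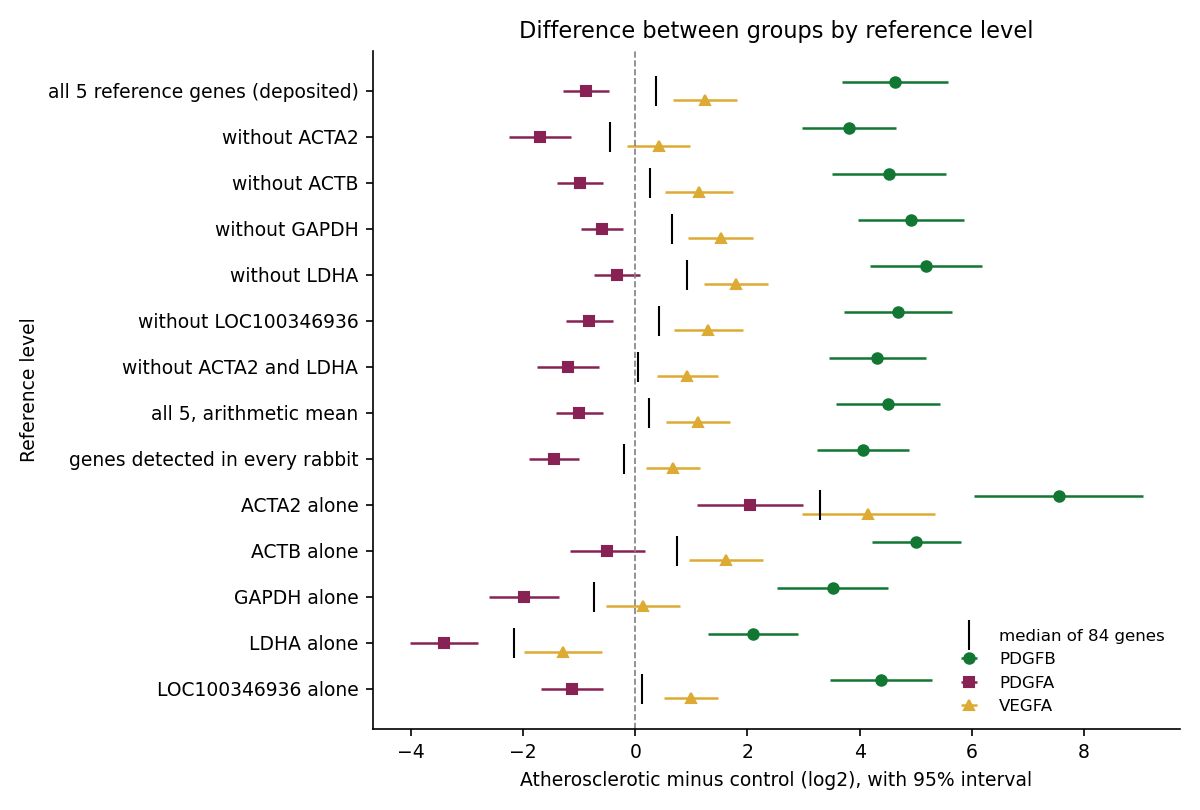
Log2 difference between the atherosclerotic and the control group (horizontal axis, with the 95% interval from limma) for PDGFB, PDGFA and VEGFA at the deposited reference level and 13 others (rows). The black tick is the median of the 84 genes, which moves from -2.16 against LDHA alone to 3.29 against ACTA2 alone, and PDGFB is right of 0 in every row.

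Rabbits with more of 1 growth factor did not have detectably more or less of another. Of 6 relations tested between log2 values, 3 pairs of genes in each group of 9 rabbits, none passed an exact permutation test, with adjusted p of 0.50 or higher. Pearson's r was 0.52 for PDGFB and VEGFA in the control group (exact permutation p = 0.15), with Spearman's rho of 0.45 (exact permutation p = 0.23), but 0.19 without the 2 rabbits farthest from the median of PDGFB and 0.23 when the 2 late PDGFB wells were not held at 35 cycles. It was -0.50 for PDGFA and VEGFA in the atherosclerotic group (exact permutation p = 0.17), with Spearman's rho of -0.53 (exact permutation p = 0.15), and -0.43 without the 2 rabbits farthest from the median of PDGFA, but -0.01 without ACTA2 in the reference level. For PDGFA and PDGFB, r was 0.11 among controls and -0.12 among atherosclerotic rabbits, with an exact permutation adjusted p of 0.77 for both. For PDGFB and VEGFA in the atherosclerotic group r was 0.35 (exact permutation p = 0.34). With 9 rabbits, correlations of this size cannot be told from 0.

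The genes most like each growth factor were those with the highest Pearson's r of log2 values after the group mean was taken off, over the 18 rabbits. All genes of a rabbit share its reference level and cDNA, so these coefficients are a description. For PDGFB they were COL5A3, a fibrillar collagen chain (r = 0.86), TLR4, the receptor of bacterial lipopolysaccharide (r = 0.84), and TIAM1, an exchange factor that activates the GTPase Rac (r = 0.81). Without rabbits 3 and 20 these coefficients were 0.85, 0.92 and 0.72, and without ACTA2 in the reference level 0.83, 0.81 and 0.74. All 3 genes were higher in the atherosclerotic group, with log2 differences of 3.07 for COL5A3, 5.30 for TLR4 and 5.22 for TIAM1. For PDGFA the most similar gene was TAGLN, an actin-binding protein of smooth muscle listed as LOC100009332 (r = 0.82), followed by IL2, a T cell growth factor (r = 0.70), and FGF2, a fibroblast growth factor (r = 0.63), with 0.82, 0.71 and 0.64 when rabbits 3 and 20 were left out. These 3 genes were lower, with log2 differences of -2.99 for TAGLN, -2.05 for IL2 and -1.98 for FGF2, against -0.88 for PDGFA. Without ACTA2 in the reference level their coefficients with PDGFA were 0.90 for TAGLN, 0.82 for IL2 and 0.82 for FGF2. For VEGFA they were WNT5A, a secreted Wnt ligand (r = 0.79), the cytokine TNF (r = 0.70) and CD40LG, the CD40 ligand of activated T cells (r = 0.66), with 0.83, 0.59 and 0.57 when rabbits 3 and 20 were left out. Spearman's rho with VEGFA was 0.81 for WNT5A but 0.48 for TNF and 0.49 for CD40LG, and for the genes most like PDGFB and PDGFA it lay between 0.59 for FGF2 and 0.82 for TLR4. TNF was at or beyond 35 cycles in 9 of 18 rabbits, so its coefficient rests in part on limits, as do those with PDGFB, which had 2 wells at the limit, and that of COL5A3, which had 2 of its own. TNF and CD40LG rose at the deposited reference level, with log2 differences of 2.34 (limma adjusted p = 1.5e-05) and 1.77 (limma adjusted p = 0.0063). WNT5A had a log2 difference of -1.19 between the groups (limma adjusted p = 0.084), opposite in sign to that of VEGFA.

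No receptor for PDGF or VEGF is among the 84 genes. Of 34 other listed ligands, receptors and signalling genes of these pathways, which leave out PDGFA, PDGFB and VEGFA themselves, 9 were on the array, all of them signalling genes. Of the 9, 5 passed the limma test, 4 as higher and 1 as lower, where 60.7% of all genes were called, 38.1% as higher and 22.6% as lower. Their median log2 difference was 0.26, against 0.37 for all 84 genes. TIAM1 rose the most, from 0.00103 ± 0.000891 (SD, n = 9) to 0.0337 ± 0.0172 (SD, n = 9). GRB2, the adaptor that links activated growth factor receptors to Ras, rose by 1.43 (standard error 0.23, limma adjusted p = 2.5e-05). MAPK3, which is the kinase ERK1, rose by 1.01 (standard error 0.23), and PIK3CA, a catalytic subunit of PI3-kinase, by 0.63 (standard error 0.19). PTK2, the focal adhesion kinase, fell by 0.50 (limma adjusted p = 0.035), a call that was lost when any 1 of control rabbit 3 and atherosclerotic rabbits 2, 4, 10 and 18 was left out. The other 4 did not pass the test, among them STAT3, a transcription factor, at -0.01 and CTNNB1, which encodes beta-catenin, at 0.26. TIAM1 was called higher at all 13 other reference levels, at which between 9.52% and 94.0% of the 84 genes were called higher. The other calls depended more on the reference level, since GRB2 passed in the same direction at 11 of the 13 levels (negative at 1), MAPK3 at 9 (negative at 2), PIK3CA at 7 (negative at 3) and PTK2 at 8 (positive at 2). With ACTA2 left out, 2 of the 9 were higher and 4 lower, where 26.2% of all genes were called higher and 40.5% lower, 66.7% in all. Without LDHA it was 7 higher and 0 lower, where 56.0% of all genes were called higher and 11.9% lower, 67.9% in all. When rabbits 3 and 20 were left out, 4 were higher and 0 lower, where 48.8% of all genes were called higher and 20.2% lower, 69.0% in all.

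Among 15 listed other growth factors, 12 were on the array, of which 3 were called higher and 5 lower, where 38.1% of all genes were called higher and 22.6% lower, 60.7% in all. The median log2 difference of the 12 was -0.40, against 0.37 for all genes. IGF1, insulin-like growth factor 1, rose from 0.0313 ± 0.0253 (SD, n = 9) to 0.160 ± 0.0728 (SD, n = 9), with a log2 difference of 2.48 (standard error 0.33, limma adjusted p = 2.1e-06). HGF, the hepatocyte growth factor, rose by 1.10 and TGFB1 by 0.83, each passing in this direction at 8 of 13 other reference levels and negative at 2. FGF2 fell from 0.182 ± 0.0464 (SD, n = 9) to 0.0496 ± 0.0221 (SD, n = 9), and TGFB3 fell by 2.15 on the log2 scale. CTGF, a matricellular protein induced by TGF beta, fell by 1.25, and the activin subunit INHBA by 0.81. The call of INHBA was close to the threshold, with a limma adjusted p of 0.046 and an exact permutation adjusted p of 0.056, and it passed in the same direction at 8 of 13 other reference levels. When single rabbits were left out, the list had 4 lower calls in 12 of 18 fits, 5 in 5 and 6 in 1. CSF3 fell by 1.05, with 6 of 9 atherosclerotic wells at or beyond 35 cycles. EGF, HBEGF, FGF10 and CSF2 did not pass the test, and EGF was at or beyond 35 cycles in 17 of 18 rabbits. No increase among these 12 was as large as the 4.63 of PDGFB, and of their increases IGF1 alone exceeded the 1.24 of VEGFA. These differences between genes were not tested. These counts moved with the reference level, as did those of all genes. They were 1 higher and 7 lower without ACTA2, where all genes gave 26.2% and 40.5%, and 4 higher and 2 lower without LDHA, where all genes gave 56.0% and 11.9% and the list had a median of 0.15. Leaving out rabbits 3 and 20 gave 5 higher and 5 lower, beside 48.8% and 20.2% of all genes.

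**Figure D4:**
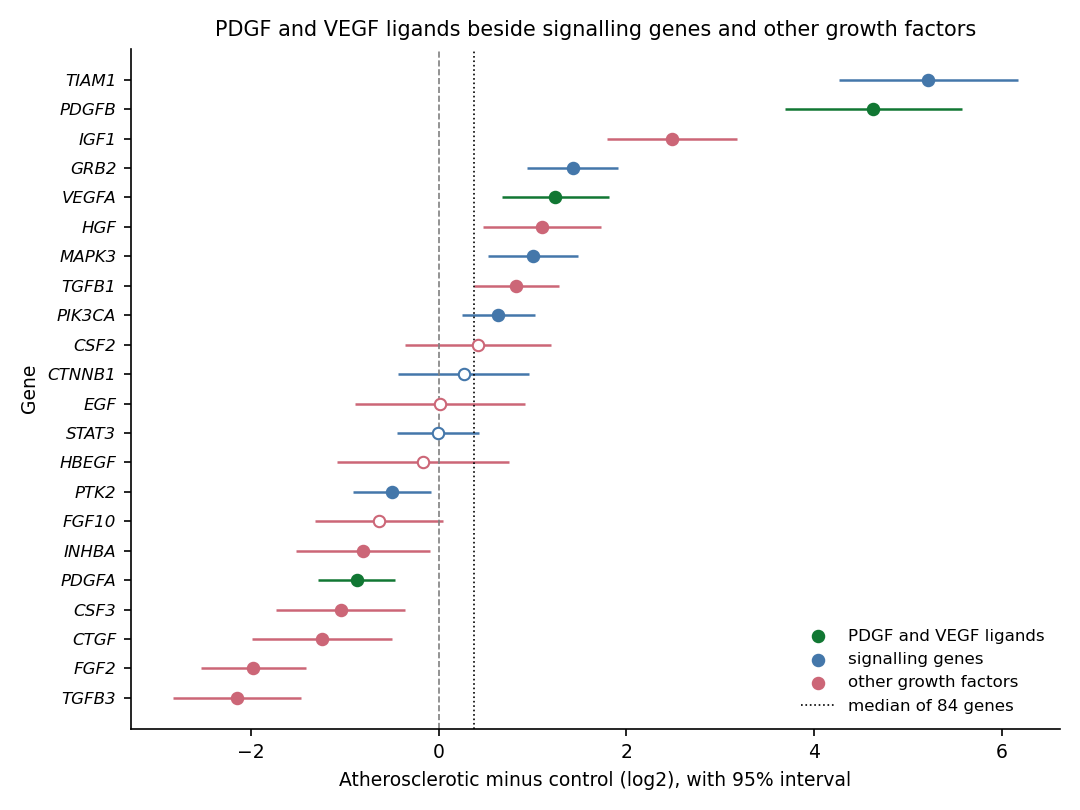
Log2 difference between the atherosclerotic and the control group (horizontal axis, with the 95% interval from limma, deposited reference level) for PDGFB, VEGFA and PDGFA, 7 of the 9 signalling genes and the 12 other growth factors. Filled points passed an adjusted p of 0.05 and open points did not, and the dotted line is the median of the 84 genes at 0.37. PDGFB lies next to TIAM1 at the top, and PDGFA lies between INHBA and CSF3.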

How the data were processed

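RNA of 18 rabbit aortas, 9 control and 9 atherosclerotic, was read on a PCR array for rabbit wound healing, with 1 well per gene and rabbit. TRIzol extracts were turned into cDNA and run on a Mx3000P instrument, and GeneGlobe was used for the analysis by the authors. They deposited the raw Ct per well, a ratio (2 raised to minus deltaCt) that sets every gene against its rabbit's reference level, and their own fold changes, which were not used. Recomputed from the Ct values with a ceiling of 35 cycles and the geometric mean Ct of the 5 reference genes, the deposited ratio was matched within 5e-07.

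Groups and rabbit numbers came from the sample titles. The log2 ratio of all 84 genes of interest was compared with limma (lmFit and eBayes, no covariates), with Benjamini-Hochberg adjustment of p over these 84. Ratios between growth factors were put to two-sided exact permutation tests over 48620 assignments of rabbits, adjusted over the 3 ratios. The alternatives tried were other reference levels, late wells handled differently (undetermined wells at 40 cycles, late wells left out, a detection filter of 5 rabbits), the exact test and the unpaired test of the study's methods, array weights, the unlogged ratio, and leaving out rabbits. The counts for the lists under other settings were added after seeing the data.

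The genes named are the growth factors, the genes of both lists on the array, and the 3 genes most like each growth factor, apart from 2 signalling genes that are counted but not reported singly here. The members and lists were chosen with earlier results of these data known. Marker lists for smooth muscle, T cells, macrophages, endothelium and platelets were used to check the tissue. Precision is limited by single wells, and no plate or batch is named in the labels. All 3 symbols were found in the RefSeq table of assembly mOryCun1.1, from which no position was taken. The limma and exact tests were tested on simulated data. The software was limma 3.58.1 in R 4.3.3, and pandas 2.3.3, scipy 1.17.1, numpy 2.4.6 and matplotlib 3.10.9 in Python 3.11.15.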

Additional observations from a re-analysis of the deposited data

Results flagged for a closer look

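Of 14 groups of 9 values examined, which are the 3 growth factors, their 3 ratios and the reference level in each group, 3 held a rabbit far from the others, where about 0.7 are expected by chance. The groups share genes and reference levels, and rabbit 20 was flagged both for PDGFB and for its reference level. The count was therefore not tested against chance. PDGFB of atherosclerotic rabbit 20 was -8.72 on the log2 scale, against -6.59 to -5.65 in the other 8. The PDGFB well of this rabbit was not late, since its Ct of 28.51 was the earliest of the atherosclerotic group, while its PDGFB to PDGFA ratio, which needs no reference level, was again the lowest of its group at -3.40, against -1.99 to -0.08. The reference level of rabbit 20 was 19.79 cycles, against 22.65 to 23.65, and that of control rabbit 3 was 24.53 cycles, against 22.00 to 22.82. The part of the reference level in the PDGFB value of rabbit 20 was not tested.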

How the results depend on the processing

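PDGFB and the 3 ratios between the growth factors had the same direction and passed the threshold of 0.05 under all alternatives run (39 for PDGFB and 23 for each ratio), as did PDGFA in 36 of 39 and VEGFA in 36 of 39. For PDGFA the exceptions were -0.33 with a reference level that lacks LDHA, -0.50 against ACTB alone and 2.04 against ACTA2 alone, which reversed it. For VEGFA they were 0.42 with ACTA2 left out, 0.13 against GAPDH alone and -1.29 against LDHA alone, which reversed it. Leaving out each rabbit in turn gave log2 differences of 4.44 to 4.92 for PDGFB, -0.97 to -0.79 for PDGFA and 1.09 to 1.36 for VEGFA, and no call was lost. The ratios on the log2 scale stayed between 5.32 and 5.86 for PDGFB to PDGFA, 3.15 and 3.61 for PDGFB to VEGFA and 1.93 and 2.32 for VEGFA to PDGFA. Among the relations between genes, all below the threshold, r of PDGFA and PDGFB in the control group turned to -0.061 with ACTA2 left out and -0.16 without the 2 farthest rabbits, and r of PDGFB and VEGFA in the atherosclerotic group turned to -0.022 and -0.21. The number of genes called, 51 of 84, lay between 46 with late wells left out and 59 with array weights. With late wells left out, 6 genes had no value in a group and were not tested. No paired analysis was possible because the groups share no rabbit numbers. A difference that involves PDGFB in control rabbits 1 and 3 is limited by the ceiling of 35 cycles.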
